A study of Mus musculus with 4 samples.

Results

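Border-associated macrophages were found among single cells sorted from the mouse corpus callosum, the main white matter tract between the hemispheres. A kept cell was counted as a border-associated macrophage, called a member below, when it held a unique molecular identifier (UMI) for at least 3 of 6 marker genes: Mrc1, Pf4, F13a1, Ms4a7, Cd163 and Lyve1. This gave 59 members among 3728 kept cells (1.58%), out of 4000 deposited barcodes. Members were thus chosen by the UMIs of these 6 markers in the same cells, so the marker values, and all comparisons of members with the other cells of their library, are given as a description with no test.

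The mice were male C57BL/6 animals aged 13 weeks. Of 4 libraries, 2 came from untreated mice (week 0) and 2 from mice given cuprizone (week 5), a copper chelator that kills oligodendrocytes and strips myelin. All cells were live nucleated singlets sorted by flow cytometry for CD11b, an integrin of myeloid cells, so macrophages low in CD11b may be missing. The labels do not say that libraries came from separate animals, and p-values here reflect only how far these samples spread, a spread that may be technical.

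Border-associated macrophages live in the meninges, around vessels and in the choroid plexus, at the edges of the brain, whereas microglia live in its parenchyma. They take up material from blood and cerebrospinal fluid through scavenger and lectin receptors, and some of them present antigen on MHC class II. In mice, cells rich in Lyve1 and Cd163 and cells rich in MHC class II are commonly described as separate groups within them.

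Sequences that bear on the results come from the 300 bases around the gene start (250 before, 50 after; RefSeq, GRCm38.p6), written 5′ to 3′ along the gene. Pf4 is shown as a leading rule marker on the plus strand of chr5:90772185-90772484, and the capitals mark a PU box, the letters GAGGAAGT bound by the myeloid factor PU.1. It lies on the opposite strand and begins 10 bases before the start. Ifi207, on the minus strand of chr1:173741760-173742059, is one of the genes whose change with cuprizone differed between members and other cells. The capitals there mark the core of an interferon-stimulated response element, GAAA and again GAAA with any 2 bases between them, and it begins 41 bases before the start. H2-Aa (minus strand of chr17:34287774-34288073) and H2-Eb1 (plus strand of chr17:34305617-34305916) encode MHC class II chains, which were high together in the same members. Their capitals mark the Y box, CTGATTGG, a site of the factor NF-Y.
Pf4: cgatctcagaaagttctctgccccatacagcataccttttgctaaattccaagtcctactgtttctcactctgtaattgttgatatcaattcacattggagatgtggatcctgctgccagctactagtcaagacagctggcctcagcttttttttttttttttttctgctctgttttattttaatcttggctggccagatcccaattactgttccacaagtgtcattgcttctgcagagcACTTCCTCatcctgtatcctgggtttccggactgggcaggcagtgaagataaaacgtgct
Ifi207: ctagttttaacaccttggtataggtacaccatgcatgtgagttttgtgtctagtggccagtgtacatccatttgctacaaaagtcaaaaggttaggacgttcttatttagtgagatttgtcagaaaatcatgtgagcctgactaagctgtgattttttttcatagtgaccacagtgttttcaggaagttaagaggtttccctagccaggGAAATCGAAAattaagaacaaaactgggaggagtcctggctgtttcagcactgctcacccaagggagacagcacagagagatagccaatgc
H2-Aa: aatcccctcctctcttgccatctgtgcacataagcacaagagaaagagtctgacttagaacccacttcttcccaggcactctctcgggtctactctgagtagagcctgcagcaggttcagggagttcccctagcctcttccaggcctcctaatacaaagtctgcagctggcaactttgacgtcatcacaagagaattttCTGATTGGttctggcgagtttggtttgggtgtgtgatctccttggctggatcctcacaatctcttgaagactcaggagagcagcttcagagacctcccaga
H2-Eb1: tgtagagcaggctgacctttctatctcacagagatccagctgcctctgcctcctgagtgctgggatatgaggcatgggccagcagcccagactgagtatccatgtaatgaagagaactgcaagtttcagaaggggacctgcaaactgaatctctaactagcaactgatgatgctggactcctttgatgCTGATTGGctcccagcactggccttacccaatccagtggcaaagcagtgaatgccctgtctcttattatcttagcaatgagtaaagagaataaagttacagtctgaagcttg

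Both strands of 32851 RefSeq windows of this length were searched. The PU box was found in 3.20% of them, the response element core in 3.44% and the Y box in 4.10%. None of the 4 windows shown held a match to another of the 3 motifs. A match describes letters only.

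Members made up 12 of 929 kept cells (1.29%) in week 0 replicate 1 and 4 of 917 (0.436%) in week 0 replicate 2. At week 5 they were 26 of 967 (2.69%) in replicate 1 and 17 of 915 (1.86%) in replicate 2. Exact binomial 95% intervals were 0.669% to 2.25% and 0.119% to 1.11% at week 0, and 1.76% to 3.92% and 1.09% to 2.96% at week 5. Both week 5 shares were above both week 0 shares. The mean was 0.864% ± 0.605 (SD, n = 2) at week 0 and 2.27% ± 0.588 (SD, n = 2) at week 5, a difference of 1.41 percentage points. An exact two-sided permutation test gave p = 0.3333, the smallest that 2 libraries against 2 can give. These are shares of sorted CD11b-positive cells, whose other classes can also change in number.

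**Figure D1:**
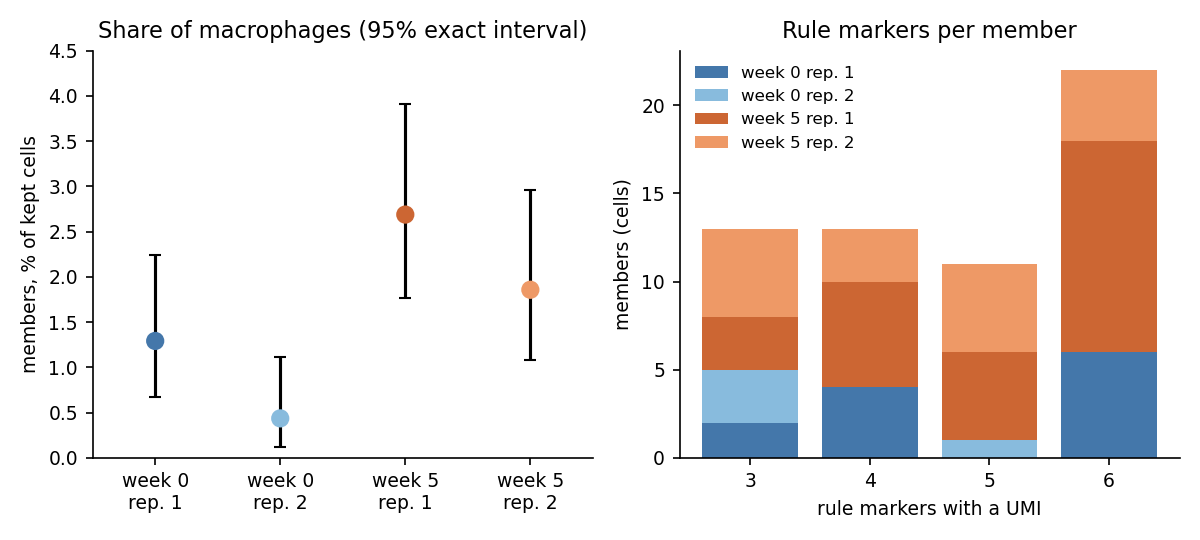
Left, members as a percentage of kept cells in each library, with the exact 95% interval for counting error. Right, the number of members by how many of the 6 rule markers had a UMI, coloured by library. Both week 5 points lie above both week 0 points, and 22 of the 59 members held all 6 markers.

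The libraries held 2367494 to 6531101 UMIs in kept cells, and members were deep cells in most of them. Their median UMI count was 6193.5 and 7305.5 in week 0 replicates 1 and 2, and 6342 and 4146 in week 5 replicates 1 and 2. In the other kept cells it was 1509, 3941, 6144 and 2428 in the same order. A deeper cell has more chances to show 3 markers. With every cell of at least 1000 UMIs thinned to 1000, and the rule applied to the thinned counts, 9, 2, 21 and 10 members were found and the difference between the weeks was 1.08 points. No barcode of a member was shared between libraries, while 6 barcodes of all cells were.

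All 6 markers were present in 22 members, 5 in 11, 4 in 13 and 3 in 13. The 13 cells just inside the rule held 25.9 UMIs of the rule markers per 10000, against 5.02 in the 24 cells just outside it, with 2 markers. By library, week 0 first, the values were 28.7, 19.7, 50.7 and 17.4 inside, and 22.8, 3.435, 2.99 and 20.8 outside. In week 5 replicate 2 the cells outside were thus higher, and these markers are the ones that set the rule. Those 24 cells were 3, 3, 15 and 3 by library, and their median depth was 10380 UMIs, against 6164 just inside. Pooled over libraries, the same cells held 114 UMIs of the 12 microglia markers per 10000, both just inside and just outside. By library the values were 108.5, 202.7, 79.9 and 74.1 inside, and 68.35, 245.6, 97.7 and 61.7 outside. The cells inside and outside thus differed within libraries, in both directions.

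Mrc1, the mannose receptor (mm10, chromosome 2, 14229392 to 14332057, plus strand), stood at 35.4 UMIs per 10000 in members of week 0 replicate 1 and 7.31 in replicate 2, and at 34.5 and 22.5 at week 5. Pf4, a platelet-type chemokine, stood at 31.0, 6.96, 25.4 and 24.6 in the same order of libraries. Cd163, the receptor for haptoglobin and haemoglobin, stood at 7.59, 0.348, 8.59 and 6.34. In each case week 0 replicate 2 was lowest, with 4 cells behind its value. F13a1, the A chain of clotting factor XIII, had 11.9, 1.39, 12.9 and 5.49, and Ms4a7, a membrane protein of macrophages, had 13.8, 6.26, 14.2 and 10.98. Lyve1, a hyaluronan receptor, had 4.59, 8.24 and 6.34 in the 3 libraries whose tables list it. Other kept cells had at most 0.401 of any of the 6 markers.

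Week 0 replicate 2 stood apart in a second respect. The 12 microglia markers summed to 235 UMIs per 10000 in its members, against 72.1 in week 0 replicate 1 and 82.7 and 58.7 at week 5. Other kept cells had 295, 340, 175 and 213. Among its 4 members, 2 reached 248 and 295. Counts of genes are therefore given without this library as well. Whether microglial RNA in these barcodes took part in the results was not tested.

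Of 1927 genes with enough UMIs in members, 40 were at least 4-fold higher in members than in the other cells of every library (2.08%), and of 177 genes that could be judged for the opposite, 0 were at least 4-fold lower in every library (0%). Without week 0 replicate 2 the numbers were 67 of 1766 and 7 of 411. The count of higher genes was 16 of 971 without week 0 replicate 1, 24 of 899 without week 5 replicate 1 and 15 of 988 without week 5 replicate 2, where 5 UMIs were required in members of all 3 libraries left. The 7 included Tmem119, a microglia marker, and Ttr, which the choroid plexus makes. The contrast is the one that chose the cells, and the counts describe it.

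Cbr2, a carbonyl reductase, led the ranking at 6.73, 2.78, 4.92 and 4.51 UMIs per 10000, with 0.00435 or less in other cells. Its ratio was alike in all libraries, from 1267-fold to 1565-fold, with 1 or 2 UMIs in other cells of each library, so counting error is wide. Besides rule markers, the 20 highest genes held several receptors that bind sugars: Clec10a, Clec4n, Cd209f and Cd209g, and the soluble lectin Fcna. Clec10a stood at 2.44, 0.696, 4.98 and 1.97. Cd209f stood at 2.72, 3.497 and 3.80, and was without a UMI in members of week 0 replicate 2, as were Fcna, Clec4n and Cd209g.

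Chemokine and vessel-related genes were among the 20 too. Ccl8, a monocyte-attracting chemokine, had 2.87, 0, 3.56 and 2.25 UMIs per 10000, and other cells had at most 0.00435. Ednrb, the endothelin B receptor, had 2.01, 0, 1.96 and 0.845. Folr2, a folate receptor that marks resident macrophages, had 5.16, 1.04, 4.74 and 5.77. Cd38, Pla2g2d, Cd93, Egfl7 and F630028O10Rik completed the 20. Members of week 0 replicate 2 had no UMI for 9 of the 20 genes, one of which is Lyve1. For these 9 the ranking itself required at least 5 UMIs in members of each other library. Apart from Ednrb, none of the 9 had a UMI in other cells of week 0 replicate 2 either. Lyve1 is missing from that table, and for the others a 0 is not told apart from a missing gene.

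**Figure D2:**
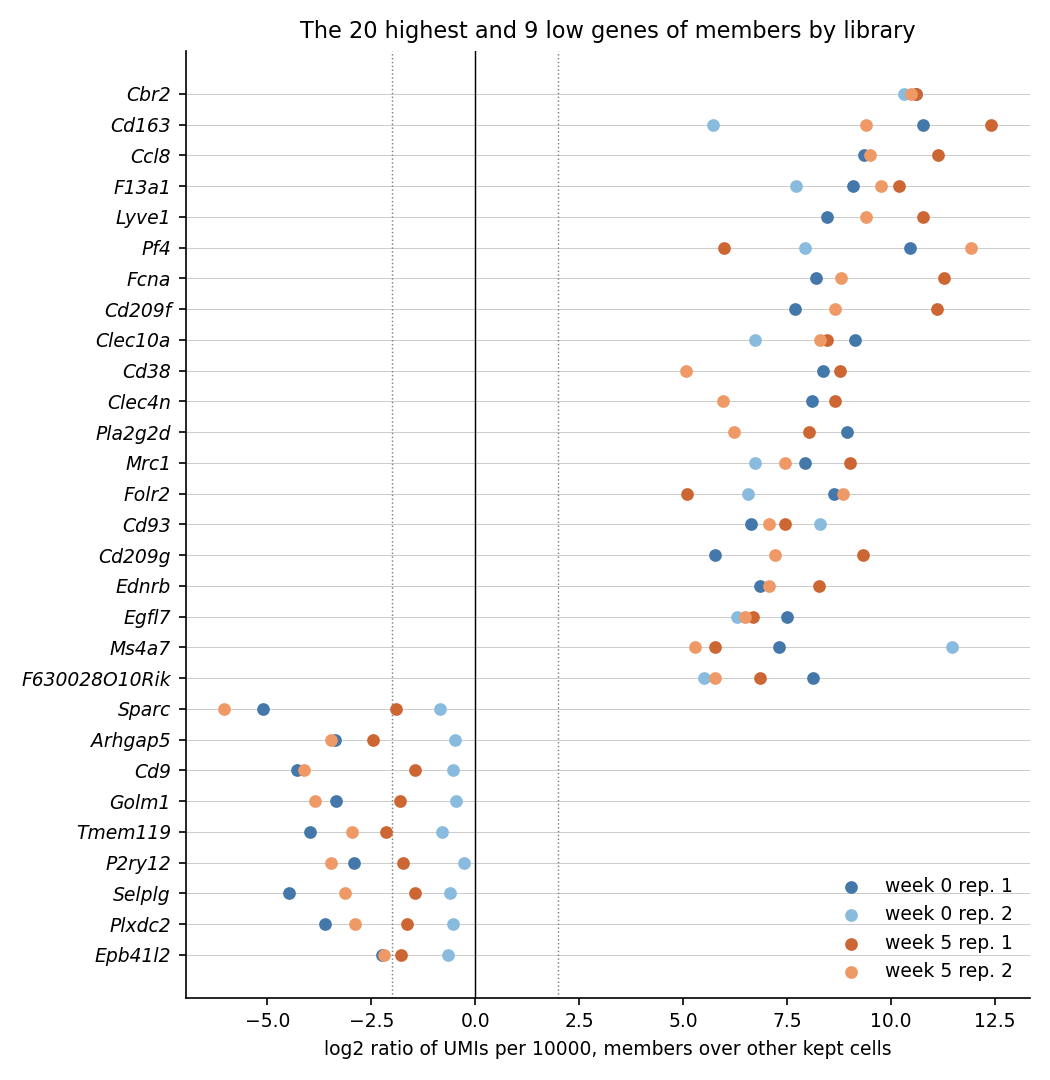
The log2 ratio of UMIs per 10000 in members over other kept cells for the 20 highest genes and 9 of the 10 lowest, 1 point per library. Dotted lines mark a 4-fold ratio, a class without a UMI is set to 3 UMIs, and no point is drawn where neither class had one or where that floor leaves the direction undetermined. Week 0 replicate 2 lies nearest to 0 for all 9 low genes drawn.

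The lowest genes were led by Sparc, a matrix protein of microglia, at 0.716, 17.8, 5.33 and 0.282 UMIs per 10000 in members, and 24.6, 31.8, 19.9 and 18.6 in other cells. P2ry12, the purine receptor that defines homeostatic microglia, had 4.44, 31.7, 3.91 and 1.55 against 33.5, 38.0, 12.9 and 17.2. Tmem119 had 0.860, 9.40, 1.30 and 1.13 against 13.5, 16.4, 5.74 and 8.80. Arhgap5, Cd9, Golm1, Selplg, Plxdc2 and Epb41l2 were also among the 10 lowest. Members of week 0 replicate 2 were the closest to other cells for each of these 9 genes. Of the 12 microglia markers, 11 were lower in members in every library and 1 was higher. How many of all genes were lower in every library was not counted.

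Macrophage markers outside the rule were described in the same way. Of 25 such genes in the tables, 12 were higher in members in every library, beside 352 of the 1927 genes of the ranking. The median log2 ratio was 7.003 over the 24 with at least 5 UMIs in members, beside 0.10 over the 1927 genes of the ranking, which needed such counts in 3 libraries. Maf, a transcription factor of resident macrophages, had 29.4, 16.0, 35.0 and 24.8 UMIs per 10000 in members and 14.7, 13.7, 6.39 and 9.80 in other cells. Stab1, a scavenger receptor, had 16.3, 3.48, 16.5 and 15.2 against 3.64, 2.47, 1.52 and 2.29. Dab2, an adaptor for endocytosis, had 20.3, 7.31, 14.0 and 7.46 against at most 0.401.

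Most markers of other cell types were scarce in members. The listed neutrophil, mast cell, and pericyte and fibroblast markers (4, 1 and 2 genes) were at 0 in all 4 libraries. The 8 listed monocyte markers summed to 1.72, 0, 0.889 and 2.25 UMIs per 10000, against 0.518, 0.200, 1.37 and 0.542 in other cells. Only Ccr2, a chemokine receptor, and Fn1 had UMIs in members. Ccr2 had 1.72, 0, 0.1185 and 2.25 in members, against 0.183, 0.1275, 0.0943 and 0.160 in other cells. Ly6c2 and Plac8 had no UMI in members, and in other cells they were at most 0.163 and 0.252, so their absence says little. T and NK cell markers summed to at most 0.178, choroid plexus and ependyma markers to at most 0.296, neuron markers to at most 0.178 and endothelial markers to at most 1.04. Oligodendrocyte markers reached at most 1.43, astrocyte markers 1.39 and B cell markers 3.94, against at most 2.04, 3.06 and 3.14 in other cells. The dendritic cell list summed to 6.16, 11.5, 5.63 and 3.52 in members, of which Siglech, which the microglia list holds too, made up 2.44, 11.5, 2.96 and 3.24. Cd209a, a lectin receptor that the list of other macrophage markers holds too, had 3.58, 0, 1.96 and 0 in members, from 6 cells, and at most 0.0362 in other cells. Zbtb46, a transcription factor of dendritic cells, had 0.143, 0, 0.356 and 0.282 in members, from 9 UMIs, and at most 0.0408 in other cells. Flt3, Xcr1 and Clec9a, which also define dendritic cells, had no UMI in members. What part these cells have in the results was not tested.

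Several functional groups stood near the other cells' level. Complement genes summed to 229, 257, 241 and 235 UMIs per 10000 in members and 204, 257, 217 and 228 in other cells. C1qa, a subunit of the first complement component, had 86.1, 106, 85.8 and 82.7 against 71.7, 97.5, 76.1 and 84.0. The lysosome genes summed to 352, 357, 383 and 315 against 341, 374, 454 and 385. Within that list Lyz2, lysozyme, was at 89.0, 41.1, 59.8 and 80.4 in members and 3.88, 2.00, 17.4 and 9.20 in other cells, and the classes did not overlap. Cell division genes were low in both classes, at most 2.68 in members and 2.40 in other cells. Genes that respond to tissue dissociation summed to 9.89, 10.1, 8.06 and 17.6 in members and 11.2, 9.75, 9.02 and 9.02 in other cells.

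Iron and heme genes summed to 147, 92.2, 144 and 152 UMIs per 10000 in members, against 40.4, 46.2, 112 and 72.5. Ferritin made up most of it. Ftl1, the light chain, had 50.9, 25.1, 46.9 and 55.1 in members, and Fth1, the heavy chain, had 64.6, 53.3, 69.7 and 74.9 in members and 15.9, 19.9, 64.3 and 38.7 in other cells. Ms4a6c, of the MS4A family, had 8.17, 3.83, 8.42 and 12.7 against 0.570, 0.622, 1.30 and 1.04. Growth factor and matrix genes summed to 35.1, 37.6, 40.2 and 29.99 in members and 42.0, 52.6, 43.5 and 37.0 in other cells. Clotting genes summed to 13.6, 2.78, 14.0 and 6.06 in members, of which the rule marker F13a1 was 11.9, 1.39, 12.9 and 5.49.

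**Figure D3:**
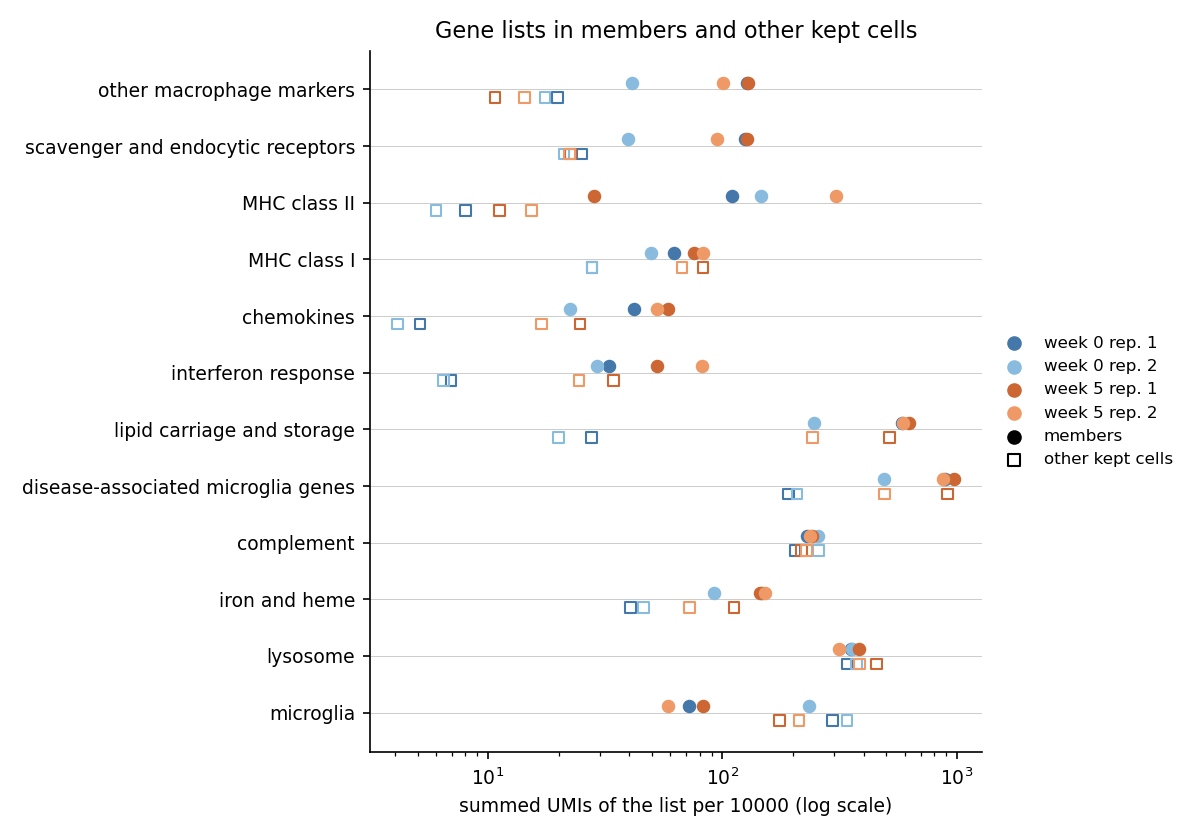
Summed UMIs per 10000 of 12 gene lists in members (filled circles) and other kept cells (open squares), coloured by library, on a log scale. Complement and lysosome genes lie close together in both classes, while the lipid list lies between 246 and 624 in members and spreads from 19.9 to 515 in other cells. Apoe alone stood at 232 to 594 in members and 4.16 to 468 in other cells. Over the 13 lipid genes with at least 5 UMIs in members the median log2 ratio was -0.73.

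Members were not uniform in MHC class II, the molecules that present antigen to CD4 T cells. The 10 genes of the list summed to under 10 UMIs per 10000 in 39 of the 59 members, to between 10 and 100 in 6, and to 100 or more in 14. No member lay between 56.2 and 122, and 4 lay between 50 and 200. The value of 100 was chosen after these values were seen, and the 2 sides are ranges of a score, not cell types.

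The 14 members at or above 100 were 4 of 12 and 2 of 4 at week 0, and 2 of 26 and 6 of 17 at week 5. Both weeks held such members in both libraries. Among the 29 members with a Lyve1 UMI, 1 reached 100, at 207. Among the 30 without one, 13 did, and median depth was 6111 UMIs with and 5252 without. The 30 include all 4 members of week 0 replicate 2, whose table does not list Lyve1, and 2 of those 4 reached 100. Of the 22 members with all 6 markers, 21 were under 100. Most of the 14 held only 3 of the markers, the fewest that the rule admits. A Cd163 UMI was found in 6 of the 14 and an F13a1 UMI in 3, against 32 and 39 of the other 45. The 14 are thus largely the cells that the rule admits by the least.

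**Figure D4:**
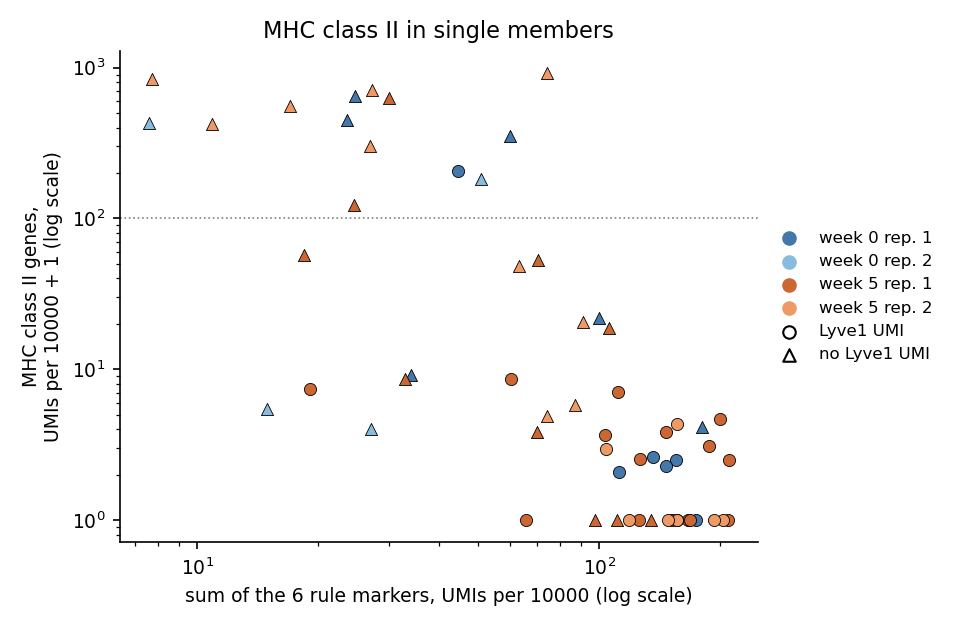
Each point is 1 of the 59 members, with the summed 6 rule markers on the x axis and the summed MHC class II genes plus 1 on the y axis, both in UMIs per 10000 on log scales. Circles have a Lyve1 UMI, triangles have none, and the dotted line marks 100. All members of week 0 replicate 2 are triangles, since its table does not list Lyve1. All but 1 of the 14 points above the line are triangles.

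Cd74, the invariant chain, had 162, 168, 81.3 and 289 UMIs per 10000 in the members at or above 100, by library, and 2.47, 0.599, 3.67 and 7.40 in the rest. H2-Aa had 84.0, 41.5, 34.1 and 108 against 0.380, 0, 1.44 and 0.264. These genes made the split, so the gap is by construction. Other genes are given with no test, since the sides were set after the values were seen. Clec10a was without a UMI in all 14 and had 117 UMIs in 30 of the other 45 members. Cd209f had 0 against 105 UMIs, Fcna 0 against 85, and Folr2 1 against 159. Ccr2, of the monocyte markers, lay wholly on the other side, with 30 UMIs in 4 of the 14 (12 in week 0 replicate 1, 2 and 16 at week 5) and 0 in the 45. Median depth was 5252 UMIs in the 14 and 6037 in the 45.

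F13a1 and Lyve1, of the rule, were also lower on the MHC class II side, at 0.637 and 0.127 UMIs per 10000 against 13.1 and 8.28. A member could enter by any 3 markers. In members at or above 100, Mrc1 had 10.5, 4.15, 3.101 and 4.82 by library, against 43.5, 9.59, 37.8 and 38.1 in the rest, and every one of the 14 had a Mrc1 UMI. Apoe was high on both sides, at 707 in the 14 and 504 in the rest.

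Over all members of a library the MHC class II sum was 110, 146, 28.4 and 305 UMIs per 10000 in members, and 8.03, 5.99, 11.2 and 15.3 in other cells. The week 5 libraries held the lowest and the highest value, so the weeks overlapped. None of the 6 MHC class II genes that passed the filter was called between the weeks.

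Between week 0 and week 5 the summed members were compared gene by gene. Of 1127 genes tested with edgeR's quasi-likelihood test, 0 were called at an adjusted p under 0.05 (0%), and 38 had an unadjusted p under 0.05, of which 21 were higher and 17 lower at week 5. DESeq2 and limma-voom also called 0. The lowest adjusted p was 0.97. Week 0 rests on 12 members in replicate 1 and 4 in replicate 2.

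Which libraries entered changed the few calls. With 1 library left out, 1 week is a single library, assumed to vary like the libraries of the other week. Without week 5 replicate 2, edgeR called 3 genes as higher (Ccl3, Cst7 and Spp1). Without week 5 replicate 1 it called Il1b as higher and P2ry12 and Sparc as lower, and without week 0 replicate 2 it called Ccl12 as higher. These genes are named because the counts are small. All Spp1 UMIs in members came from week 5 replicate 1, 96 of them from 1 cell and 11 from 6 cells. Ccl12, a chemokine that attracts monocytes, had 1.86 and 9.05 UMIs per 10000 in members at week 0 and 10.7 and 17.3 at week 5.

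Interferon-response genes had the highest median log2 fold change of the lists. They summed to 33.0 and 29.2 UMIs per 10000 in members at week 0 and 52.8 and 82.1 at week 5, and both week 5 values were above both week 0 values. Of the 25 genes of the list, 8 passed the filter. All 8 had a positive log2 fold change, with a median of 0.97, against 571 of 1127 and a median of 0.01 over all genes tested. None of the 8 was called.

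Ifitm3, a membrane protein that blocks viral entry, had 4.87 and 5.57 UMIs per 10000 at week 0 and 9.72 and 16.8 at week 5. Its log2 fold change was 1.35 with a standard error of 0.40 (edgeR, adjusted p = 0.97). Bst2, which tethers virus particles to the cell, had 7.88 and 4.18 against 10.2 and 15.5, with a log2 fold change of 1.03 and a standard error of 0.42 (edgeR, adjusted p = 0.97). For both genes the weeks did not overlap, which 2 libraries against 2 often give without a difference, and neither difference passed the test. How many of all genes tested did not overlap was not counted.

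Microglia markers lay on the other side. All 9 that passed the filter had a negative log2 fold change in members, with a median of -1.05, and 0 were called. Week 0 replicate 2 had 235 UMIs per 10000 of them, and week 0 replicate 1, at 72.1, lay between the week 5 values. Lists with medians closer to that of all genes were MHC class I at 0.36, scavenger receptors at 0.43, complement at 0.07 and lysosome at 0.10. Macrophage markers outside the rule had a median of 0.36 over 17 genes.

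Whether members and other cells changed by different amounts was tested directly. In edgeR's test of the interaction of class and week, 12 of 9949 genes were called (0.121%), and 221 had an unadjusted p under 0.05, of which 124 were positive and 97 negative. For all 12 the log2 change from week 0 to week 5 was lower in members than in other cells. DESeq2 called 7 of the 12, and limma-voom called 47 genes, 10 of them among the 12. Other cells are a sum of several types, so a shift in their makeup and a change per cell cannot be told apart. The median difference over all genes was 0.18 on the log2 scale, 0.12 with library size alone and -0.01 with DESeq2's size factors, and the 12 were negative under each. One of them, Ms4a7, is a rule marker and is not read further. Without week 0 replicate 1 the test called 1 gene, the rule marker, and without week 5 replicate 1 it called 2, Colec12 and Igf1. Without week 0 replicate 2 it called 10, of which 7 were among the 12. With cells thinned to 1000 UMIs it called Apoe alone.

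Apoe, an apolipoprotein that carries cholesterol between cells (mm10, chromosome 7, 19696109 to 19699188, minus strand), is described first. In members it had 564 and 232 UMIs per 10000 at week 0 and 594 and 568 at week 5. Other cells had 11.5 and 4.16 at week 0 and 468 and 220 at week 5. Members were high in both weeks, and other cells were higher at week 5 than at week 0 in both libraries. The ratio of week 5 to week 0 in pooled counts was 1.26 in members (95% counting interval 1.21 to 1.30) and 58.2 (56.6 to 59.99) in other cells. The log2 difference was -4.72 with a standard error of 1.10 (edgeR, adjusted p = 0.0237), and with any 1 library left out it was -5.27 to -4.16 and was not called. In members alone the log2 fold change was 0.55 with a standard error of 0.62 (edgeR, adjusted p = 0.97).

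Lpl, the lipase that frees fatty acids from lipoproteins, was also called. Members had 1.00, 0, 2.43 and 0.141 UMIs per 10000, and other cells 0.170, 0.176, 6.54 and 2.39. The members' 49 UMIs lay mainly in week 5 replicate 1, and the other cells' week 5 values exceeded their own week 0 values in both libraries. The log2 difference was -3.76 with a standard error of 0.93 (edgeR, adjusted p = 0.0470), and it turned positive without week 0 replicate 1 or with at least 4 markers required.

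Igf1, an insulin-like growth factor (mm10, chromosome 10, 87858265 to 87937042, plus strand), had 5.30 and 0.696 UMIs per 10000 in members at week 0 and 3.44 and 0.986 at week 5. Other cells went from 0.0261 and 0.0110 to 1.80 and 0.549. The levels of the weeks overlapped in members and were far apart in other cells. Pooled counts gave a ratio of week 5 to week 0 of 0.685 (0.454 to 1.05) in members and 85.9 (47.9 to 173) in other cells, and the log2 difference was -6.19 with a standard error of 0.78 (edgeR, adjusted p = 1.83e-11). It was called under 14 of 16 alternatives and missed the threshold without week 0 replicate 1 and with thinned cells.

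Receptors were called as well. Colec12, a scavenger receptor with a collagen domain, had 4.01 and 0 UMIs per 10000 in members at week 0 and 2.02 and 0.563 at week 5. Other cells had 0 UMIs at week 0 and 0.558 and 0.144 per 10000 at week 5. In week 0 replicate 2 neither class had a UMI, which is not told apart from a gene missing from the table. With a floor of 3 UMIs, week 5 was 95.8-fold higher in other cells, with a lower 95% counting limit of 77.6. The members' ratio was 0.558 (0.333 to 0.944). The fitted log2 difference was -9.20 (edgeR, adjusted p = 2.39e-08) and depends on the 0 UMIs of other cells at week 0. It turned positive without week 0 replicate 1, which held all 28 week 0 UMIs of the members. Axl, a receptor that clears dying cells, had 1.29 and 0.348 in members at week 0 and 1.30 and 1.83 at week 5. Other cells went from 0.0392 and 0.0286 to 2.07 and 0.959. The log2 difference of Axl was -4.56 with a standard error of 0.92 (edgeR, adjusted p = 0.00147).

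Of the 24 fitted genes of the interferon list, 2 were called, Ifi27l2a and Ifi204, and Ifi207, which is not on that list, was called as well. Ifi27l2a had 12.6 and 5.22 UMIs per 10000 in members at week 0 and 14.5 and 19.6 at week 5, against 0.379 and 0.257 and then 9.03 and 3.57 in other cells. Its pooled ratio was 1.53 (1.23 to 1.92) in members and 24.2 (21.1 to 28.0) in other cells, with a log2 difference of -3.08 and a standard error of 0.64 (edgeR, adjusted p = 0.00245). Ifi207, a DNA-sensing family member whose promoter is printed above, had 3.87 and 1.74 in members at week 0 and 3.44 and 3.66 at week 5. Other cells went from 0.0348 and 0.0308 to 0.993 and 0.649, and the log2 difference was -4.15 with a standard error of 0.70 (edgeR, adjusted p = 1.11e-05). Ifi204, of the same family, had 1.58 and 2.44 against 2.61 and 4.65 in members, and 0.183 and 0.152 against 2.26 and 2.24 in other cells (log2 difference -2.78, edgeR, adjusted p = 0.0392). With any 1 library left out the Ifi204 difference was -3.22 to -2.29 and was not called. In members, Ifi204 did not overlap between weeks, Ifi27l2a did not either, and Ifi207 did. None of these genes was called in members. Without a difference, 2 libraries against 2 separate with a probability of 0.3333, the p of the exact permutation test above. How many of all genes separated was not counted, and nothing is read from these separations.

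Cd52, a small surface glycoprotein of leukocytes, had 5.87 and 10.8 UMIs per 10000 in members at week 0 and 8.48 and 6.62 at week 5, while other cells went from 1.67 and 1.60 to 14.1 and 6.08 (log2 difference -2.48, edgeR, adjusted p = 0.0470). With any 1 library left out the Cd52 difference was -2.92 to -1.97 and was not called. Adam33, a metalloprotease, had 1.43 and 1.39 against 1.07 and 0.704 in members. Other cells had 3 UMIs in all at week 0 and 306 at week 5, a ratio of 73.1 with a counting interval of 24.8 to 357 (log2 difference -6.32, edgeR, adjusted p = 0.000284). Etl4 had 8 UMIs in members at week 0 and 6 at week 5, and 0 and then 167 in other cells. With a floor of 3 UMIs, week 5 was 39.9-fold higher in other cells, with a lower 95% counting limit of 32.1. In members the Etl4 ratio was 0.308 (0.0882 to 1.01). Cd52 overlapped between weeks in members. Adam33 and Etl4 were lower in both week 5 libraries of members, on 14 and 8 UMIs at week 0 and 23 and 6 at week 5. Neither passed the filter for the test in members alone, and nothing is read from this separation of the weeks.

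**Figure D5:**
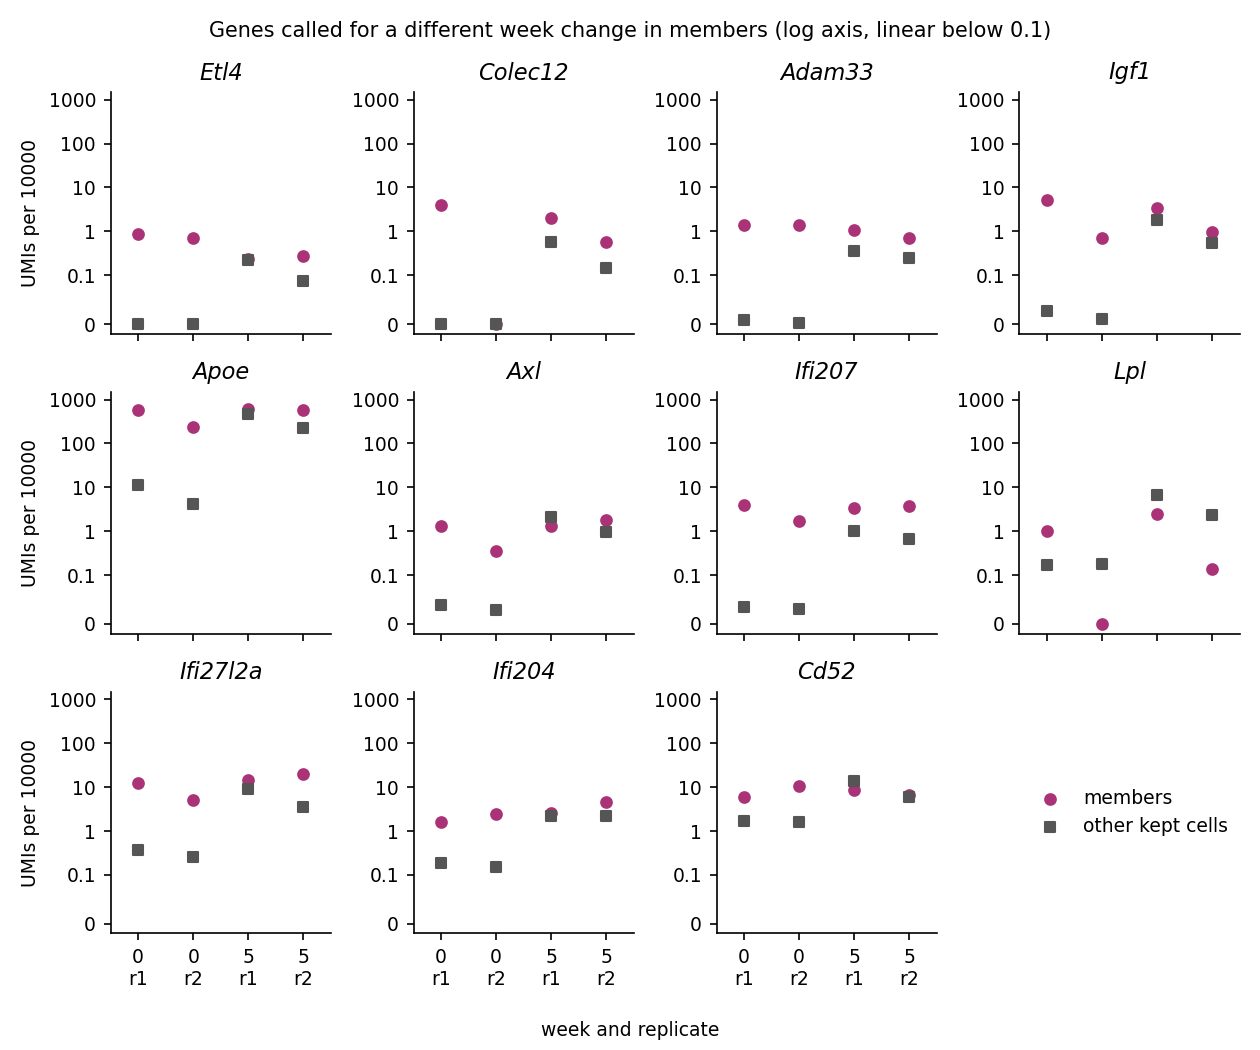
UMIs per 10000 in members (circles) and other kept cells (squares) for 11 of the 12 called genes, by week and replicate (r1, r2), with the rule marker Ms4a7 left out. The y axis is logarithmic above 0.1 and linear below. At week 0 every gene except Colec12 and Lpl in replicate 2 was higher in members than in other cells of the same library, and at week 5 members were lower for Lpl in both replicates and for Axl and Cd52 in replicate 1.

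By list, 5 of the 25 genes described as disease-associated in microglia were called (Apoe, Axl, Igf1, Lpl and Cd52), beside 0.121% of all genes. That list summed to 889 and 489 UMIs per 10000 in members at week 0 and 976 and 875 at week 5. In other cells it went from 191 and 208 to 910 and 490. Apoe alone made up 564 and 232 of the members' sum at week 0 and 594 and 568 at week 5. Of the other cells' sum it made up 11.5 and 4.16 at week 0 and 468 and 220 at week 5. The other lists with a call, besides the rule markers and MS4A family, were scavenger receptors with 2 of 22, interferon response with 2 of 24, lipid carriage with 2 of 14, and growth factors with 1 of 16. Apoe, Lpl, Axl and Igf1 stand in these lists too and are counted again. At a share of 0.121% a list of this size would seldom hold a call, and nothing is read from the lists with 0 calls, which included MHC class I (14 fitted), MHC class II (9), chemokines (15), iron and heme (12), complement (9), lysosome (21) and transcription factors (23). The median log2 difference was -0.43 in the disease-associated list, -0.64 in the interferon list and 0.06 in complement, beside 0.18 over all genes.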

How the data were processed

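Border-associated macrophages were studied in 4 libraries of single CD11b-positive cells, 2 per time. The authors' deposited tables hold UMI counts, whole numbers for each gene in each of 1000 barcodes. Per the submitters' processing notes, the tools were STAR, Cell Ranger 3.0.0 and Seurat 4 and the build was mm10. The choice of barcodes and genes for the tables is not stated there. Genes missing from a table were set to 0 for its cells, which touches Lyve1 in week 0 replicate 2.

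Cells with at least 500 detected genes and at most 10% mitochondrial UMIs were kept. Kept cells with a UMI for at least 3 of the 6 rule markers were members, and the other kept cells of the same library were the comparison. Scrublet (scanpy 1.11.5, run per library) marked 21 kept cells as doublets (0.563%) and none of the members, and marked cells were not removed. UMIs were summed per library and class. Sums were tested with edgeR 4.0.16 (quasi-likelihood test, R 4.3.3, with TMM factors and edgeR's filter on low counts), and a gene was called at a Benjamini-Hochberg adjusted p under 0.05. Week 5 was set against week 0 in members, and the interaction of class and week was fitted with the library as a block. DESeq2 1.42.0, limma 3.58.1 (voom with quality weights, chosen after seeing the data), other cell and gene filters, and each library left out were alternatives. The code was tested on simulated data.

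Levels are UMIs per 10000 of the class and library. A fold against 0 UMIs uses a floor of 3 UMIs and does not include counting error, and a ratio whose direction the floor leaves undetermined was left out. Intervals are exact at 95% and cover counting error only. The text names the 6 rule markers, the 20 highest and 10 lowest genes by the median log2 ratio of members over other cells, and the called genes. Of the 10 lowest, 1 is not reported here. It also names list members with the highest mean level in members, and says where a gene was chosen otherwise. Genes could be ranked as highest with at least 5 UMIs in members of at least 3 libraries, and as lowest with at least 20 UMIs expected in every library. The members, the lists and the rule were chosen with earlier results of these data known. UMIs of near-identical copies could be split in the authors' counting, so values of the Ifi2 cluster, Ms4a, Cd209, H2 and Ccl genes are uncertain. Promoter windows are RefSeq's on GRCm38.p6 (27 of 41 named genes had one), and gene positions are GENCODE M21's on the same genome as mm10.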

Additional observations from a re-analysis of the deposited data

Results flagged for a closer look

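The change from week 0 to week 5 differed between members and other kept cells in 12 genes, tested as an interaction in edgeR. On the log2 scale the difference, members minus other cells, was -9.48 for Etl4 and -9.20 for Colec12, both of which had 0 UMIs in other cells at week 0, so these values are no bound. It was -6.32 for Adam33, -6.19 for Igf1, -4.72 for Apoe, -4.56 for Axl and -4.15 for Ifi207. It was -3.76 for Lpl, -3.08 for Ifi27l2a, -2.78 for Ifi204 and -2.48 for Cd52. The last of the 12, Ms4a7, is a rule marker.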

How the results depend on the processing

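Having 2 libraries per week and 4 to 26 members per library limits every comparison. The direction of the share difference was the same under all alternatives, from 0.982 to 1.84 points with 1 library left out. Genes called for a different change in members and other cells numbered 25 with at least 2 markers, 4 with at least 4 markers, 1 with thinned cells, 7 with DESeq2, 47 with limma-voom and 1 to 10 with 1 library left out. Genes called between the weeks in members numbered 1 with one upper limit on genes per cell, 4 with no gene filter and 0 to 3 with 1 library left out. Genes at least 4-fold higher in members numbered 24 with at least 4 markers and 15 to 67 with 1 library left out, with 899 to 1766 genes tested in place of 1927. The replicate block gave 19 called genes (1 positive, 18 negative, 11 of the 12) and 0 in members. Deviations from the week means gave r = 0.033 between libraries of the same replicate number. With 2 libraries per week this value is the same for both numbers by construction. On sums of 4 to 26 members it cannot tell whether replicate numbers pair the samples. The Lpl difference was 6.33 with at least 4 markers and -5.87 to 6.23 with 1 library left out, and that of Colec12 was -10.72 to 1.77. The Ms4a7 difference was 0.85 when other cells held none of the 6 markers, which by construction leaves them no Ms4a7, and nothing is drawn from this rule marker. In members alone, Colec12 was 1.80 with limma-voom and -1.95 to 6.70 with 1 library left out. Igf1 was 0.094 with at least 2 markers and -1.65 to 1.97, Ifi207 was -0.38 with at least 4 markers and -0.11 to 1.22, and Ms4a7 was -0.10 to 1.22. Cd52 was 0.62 with at least 2 markers, 1.20 with at least 4, 0.27 with no gene filter and -0.30 to 0.40. Of 307 gene values under alternatives, 220 kept direction and side of the threshold, 70 lost the call and 17 changed sign. Beyond those constructions the cause was not tested.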
